A study of Mus musculus with 6 samples.

Results

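Collagen genes were followed in the olfactory epithelium of adult mice, the sensory lining of the nose, with and without NKCC1 (gene Slc12a2), a membrane transporter that brings sodium, potassium and chloride into cells. They were taken by symbol, as every gene whose name begins with Col, a number, the letter a and a further number. The pattern found 42 of the 21881 gene symbols in the table. Of these, 41 are collagen chains, and Col4a3bp is a ceramide transfer protein that shares only the start of its name. All mice were of the NMRI strain, and RNA came from pooled epithelia. The KO group (NKCC1-/-) had 3 libraries: a mixed pool of 2 epithelia of each sex, a male pool of 3 mice and a female pool of 3 mice. The WT group (NKCC1+/+) had 3 libraries pooled in the same way. All mice were adult, with no exact age given. Each library is a pool, so the spread below is between pools and not between single animals.

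Collagens are the main structural proteins of the extracellular matrix, built of chains that wind around each other in a helix of glycine-rich repeats. Fibrillar collagens form the cables of dermis, tendon, bone and cartilage, network collagens such as type IV form the sheet of the basement membrane under an epithelium, and associated collagens coat or link these structures. In the nose they are made mainly by the cells of the lamina propria, vessels, nerve sheaths, cartilage and the turbinate bone beneath the epithelium, so a dissected olfactory epithelium can hold collagen RNA from attached tissue as well as from its basal cells. In such bulk RNA, more cells of a collagen-making type and more collagen RNA per cell cannot be told apart.

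Values were FPKM, fragment counts divided by transcript length in kilobases and by library size. Changes were tested on log2(FPKM + 1) with limma, which pools information on variance across genes, over the 15067 genes whose mean FPKM reached 0.5, and called at a Benjamini-Hochberg adjusted p under 0.05 over all of them. Depth, estimated from the value of 1 fragment, was about 3930000 fragments in the KO and 3420000 in the WT mixed pool, and 11120000 to 14170000 in the male and female pools. The WT female library stood apart. Its 10 most abundant genes held 45.7% of all FPKM, against 15.5 to 34.4% in the other 5 libraries, and it was the lowest of the 6 libraries for 55.6% of tested genes. Median-of-ratios size factors, which set the typical gene level, were 1.004, 0.893 and 1.15 for KO (mixed, male, female) and 1.21, 1.06 and 0.762 for WT. Values divided by these factors are called scaled below. Slc12a2, the targeted gene, was at 28.0, 16.1 and 18.0 FPKM in the KO mixed, male and female pools and at 83.3, 40.2 and 36.0 in the WT pools (log2 change -1.26 ± 0.32 SE, limma adjusted p = 0.11), lower in KO in every pool but short of the threshold.

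Of the 41 collagens, 34 passed the filter on low values and 7 did not. None of the 34 rose or fell in KO at the adjusted threshold, beside 0.212% of all tested genes that rose and 0.624% that fell. At an unadjusted p under 0.05, 8 collagens were higher in KO and 0 lower, beside 4.26 and 4.62% of all tested genes. The 8 were Col1a1, Col1a2, Col11a2, Col5a1, Col16a1, Col13a1, Col6a2 and Col4a2. Of the 34 log2 changes, 28 were positive and 6 negative, with a median of 0.47, where 52.1% of all tested genes were positive with a median of 0.01. KO and WT values were fully separate for 5 collagens that were higher in KO (Col13a1, Col16a1, Col4a1, Col4a2 and Col9a3) and 2 that were lower (Col8a1 and Col28a1), beside 7.46% higher and 5.24% lower of all tested genes. After scaling, 18 were higher without overlap and 2 lower, beside 11.2 and 11.7%. KO lay above WT in all 3 kinds of pool for 19 collagens and below it in all 3 for 2, beside 13.4 and 8.28% of all tested genes. Scaling also brought 17 collagens higher and 1 lower at an unadjusted p under 0.05, beside 7.54 and 8.49%, and 0 at the adjusted threshold, beside 1.77% of all tested genes called in either direction, with 28 of 34 changes positive beside 49.3%.

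The count of 8 varied with the library left out. With a KO library left out it was 4 (mixed), 12 (male) or 3 (female). With a WT library left out it was 18 (mixed), 6 (male) or 3 (female). Of all tested genes, 48, 129 or 42 and then 440, 86 or 573 were called at the adjusted threshold, in the same order. The share of all genes at the unadjusted p is not given for these settings. Without the WT mixed library 5 collagens passed the adjusted threshold as higher (Col1a1, Col1a2, Col11a2, Col5a1 and Col13a1) and Col10a1 as lower, beside 1.27% of the 14982 genes tested in that setting that rose and 1.66% that fell. On scaled values the unadjusted count was between 13 and 17 with any 1 library left out. The share of all tested genes higher at that p was 7.54% with all 6 libraries and is not given for these settings. In those settings 39 to 210 of all tested genes were called at the adjusted threshold. In the deposited FPKM, the WT female library was lowest of the 6 for 28 of the 34 collagens, beside 55.6% of all tested genes. In scaled values it was the lowest for 17, beside 23.3%, and the KO mixed library was the highest for 24, beside 17.4%.

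**Figure D1:**
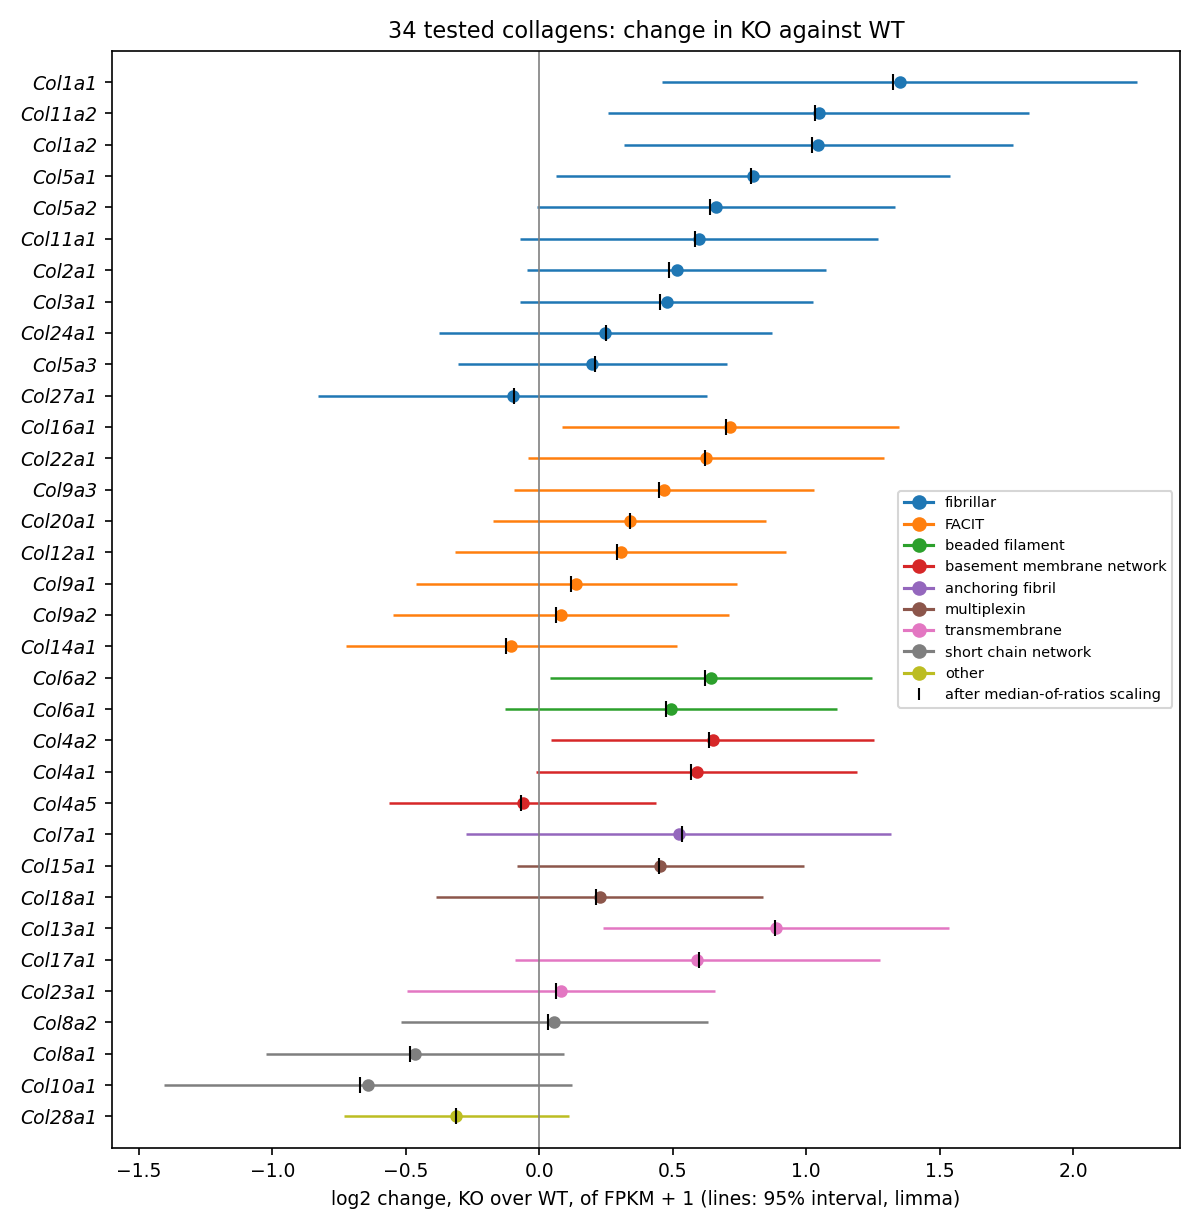
Log2 change of FPKM + 1, KO over WT, for the 34 tested collagens, coloured by class, with the 95% interval from limma (lines) and the change after median-of-ratios scaling (black ticks). Dots of 28 genes lie right of 0, led by Col1a1 at 1.35, and 6 lie left of it, with Col10a1 lowest at -0.64.

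The RefSeq table of promoters (build GRCm38.p6) held a window for 33 of the 41 collagens. The 250 bases before the annotated start are printed for those with the largest (Col11a2 and Col1a2) and the most negative (Col10a1 and Col8a1) changes among tested collagens with a window, so that the letters can be set beside the values. Capitals mark CCAAT, the letters bound by the factor NF-Y, searched on both strands, and TATAAA, the core of a TATA box, searched on the given strand.
Col11a2: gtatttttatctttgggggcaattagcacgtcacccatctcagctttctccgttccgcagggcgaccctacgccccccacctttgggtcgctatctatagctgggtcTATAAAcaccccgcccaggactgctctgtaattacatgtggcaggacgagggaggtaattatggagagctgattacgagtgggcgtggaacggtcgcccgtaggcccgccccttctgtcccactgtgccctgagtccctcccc
Col1a2: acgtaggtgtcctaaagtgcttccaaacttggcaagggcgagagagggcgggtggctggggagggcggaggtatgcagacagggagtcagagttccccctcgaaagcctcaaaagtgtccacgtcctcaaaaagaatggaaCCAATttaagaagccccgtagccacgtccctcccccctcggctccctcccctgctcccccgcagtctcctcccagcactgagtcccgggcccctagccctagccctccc
Col10a1: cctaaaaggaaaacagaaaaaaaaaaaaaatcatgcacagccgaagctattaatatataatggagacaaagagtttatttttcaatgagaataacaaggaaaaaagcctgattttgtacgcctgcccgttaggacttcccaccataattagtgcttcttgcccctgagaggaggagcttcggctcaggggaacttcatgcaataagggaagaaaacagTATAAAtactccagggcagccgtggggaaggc
Col8a1: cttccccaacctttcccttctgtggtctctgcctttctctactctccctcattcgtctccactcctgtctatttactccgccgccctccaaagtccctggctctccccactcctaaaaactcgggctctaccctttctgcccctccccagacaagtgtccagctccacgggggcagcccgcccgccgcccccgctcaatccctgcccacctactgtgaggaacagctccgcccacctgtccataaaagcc
The windows are chr17:34038888-34039137 (plus strand) for Col11a2, chr6:4505368-4505617 (plus) for Col1a2, chr10:34389731-34389980 (plus) for Col10a1 and chr16:57754738-57754987 (minus) for Col8a1. TATAAA began 143 bases before the start of Col11a2 and 32 bases before that of Col10a1, CCAAT began 109 bases before the start of Col1a2, and the Col8a1 window held neither. The 33 collagens had 36 windows. Over the same 250 bases, CCAAT stood in 13 of the 36 (36.1%) and in 33.8% of the 32851 windows of the table. TATAAA stood in 5 of the 36 (13.9%) and in 7.59% of all windows, and GGGCGG, the core letters of an Sp1 site searched on both strands, in 21 of the 36 (58.3%) and in 32.7% of all windows.

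The type I chains were by far the most abundant collagen transcripts. Col1a1, the alpha 1 chain of the main collagen of bone and dermis, was at 621, 413 and 699 FPKM in the KO mixed, male and female pools and at 417, 241 and 107 in the WT pools. Every KO pool lay above the WT pool of its kind, but the KO male pool was just below the WT mixed pool. Col1a1 averaged 578 ± 148 FPKM in KO and 255 ± 155 in WT (SD, n = 3 each), a log2 change of 1.35 ± 0.41 (SE, 95% interval 0.46 to 2.24) with a limma adjusted p of 0.21. Col1a2, its partner chain, was at 633, 430.3 and 704 FPKM in the KO pools and at 438, 281 and 176 in the WT pools. Its log2 change was 1.05 ± 0.34 SE with a limma adjusted p of 0.25. KO as a percent of WT was 149, 172 and 656% for Col1a1 in the mixed, male and female pools and 145, 153 and 399% for Col1a2, so the female pair differed most. After scaling the percentages were 179.6, 204 and 433% for Col1a1 and 174, 183 and 264% for Col1a2, and neither gene's groups overlapped. Ranked by FPKM in its library, Col1a1 took place 59, 124 and 85 in KO (mixed, male, female) and place 120, 268 and 497 in WT. Without the WT female library the log2 change was 0.83 for Col1a1 and 0.72 for Col1a2, and without the WT mixed library both passed the limma threshold, at 1.81 and 1.37.

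Both type I chains together held 81.0, 80.6 and 82.6% of collagen FPKM in KO (mixed, male, female), against 78.3, 71.8 and 68.7% in WT. The KO shares therefore all lay above the WT shares, a ratio within each library that no scaling of whole libraries changes. The level of Col1a1 relative to Col1a2 was 0.980, 0.960 and 0.993 in the KO pools and 0.952, 0.858 and 0.604 in the WT pools. That ratio was close to even in KO, and in WT it was lowest in the female pool. Col1a1 relative to Col3a1, the chain of type III that accompanies type I in soft tissue, was 9.04, 7.65 and 9.22 in KO and 7.17, 4.59 and 3.18 in WT, without overlap.

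**Figure D2:**
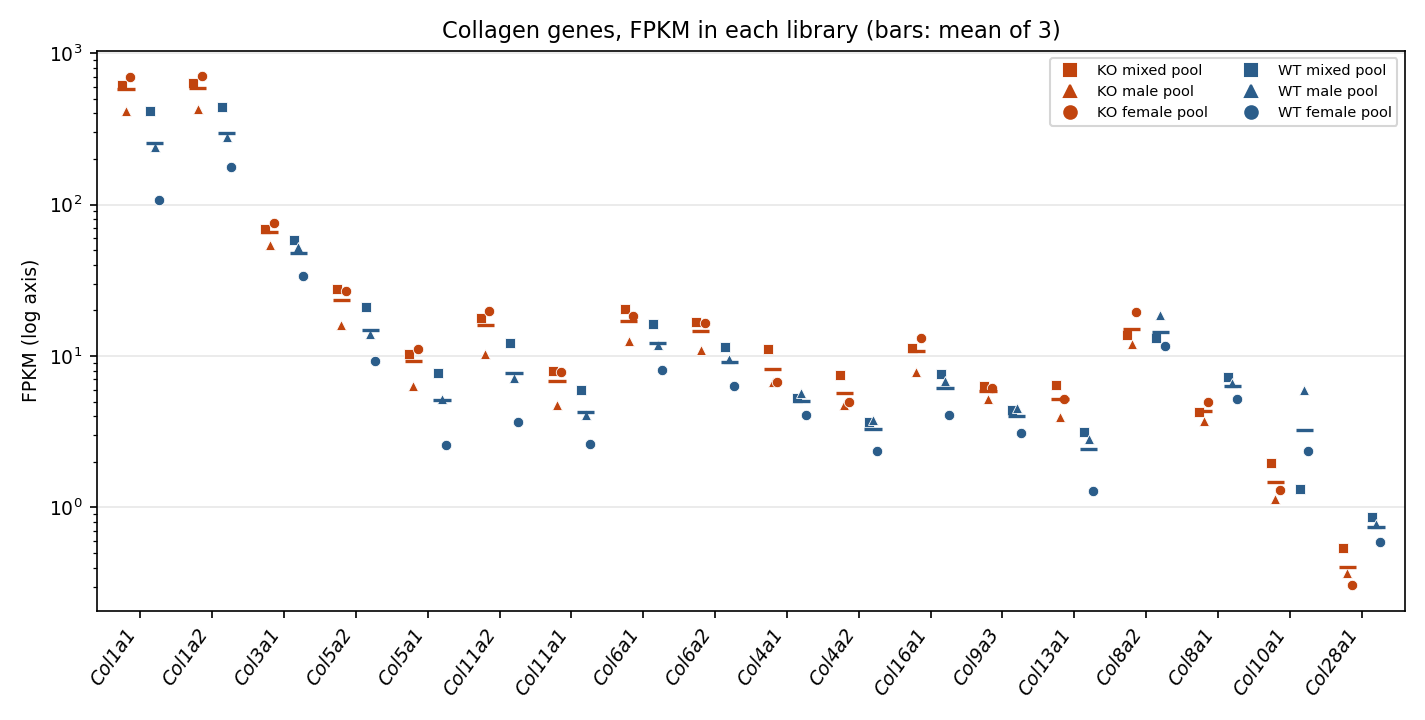
FPKM on a log axis of 18 collagens in each library, KO left of WT for each gene, with squares for mixed, triangles for male and circles for female pools and bars at the mean of 3. Col1a1 and Col1a2 stand several-fold above Col3a1 and all others, and Col8a1 and Col28a1 are lower in every KO pool than in every WT pool.

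The other fibrillar collagens lay lower and mostly leaned the same way. Of the 11 fibrillar chains tested, 10 had a positive change and 4 an unadjusted p under 0.05, with a median change of 0.60. Of all tested genes, 52.1% had a positive change and 4.26% were higher at that p. Col11a2, a chain of type XI, the minor fibrillar collagen of cartilage and some other matrices, was at 17.9, 10.4 and 19.8 FPKM in the KO mixed, male and female pools and at 12.2, 7.20 and 3.67 in the WT pools. The KO male value lay below the WT mixed value. Its log2 change of 1.05 ± 0.36 SE had a limma adjusted p of 0.31. Col5a1, a type V chain that helps set the width of type I fibrils, was at 10.3, 6.37 and 11.1 FPKM in KO and at 7.68, 5.16 and 2.58 in WT (log2 change 0.80 ± 0.34 SE, limma adjusted p = 0.49). Col5a2, the second chain of type V, was at 27.7, 15.98 and 26.7 FPKM in KO and at 21.2, 14.0 and 9.25 in WT, with a log2 change of 0.66 ± 0.31 SE. In each of these genes the groups overlapped through the male pool of KO and the mixed pool of WT.

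Col3a1 was at 68.6, 53.98 and 75.8 FPKM in the KO pools and at 58.1, 52.4 and 33.5 in the WT pools, a log2 change of 0.48 ± 0.25 SE. Col11a1, the alpha 1 chain of type XI, was at 7.90, 4.72 and 7.86 FPKM in KO and at 5.996, 4.10 and 2.64 in WT. Col2a1, the fibrillar chain that defines hyaline cartilage, was low in all libraries, at 1.84, 0.688 and 1.88 FPKM in KO and 0.506, 1.03 and 0.548 in WT. Its KO male value lay within the WT range, and the WT mixed value stood for only about 8.6 fragments. The less common Col24a1 and Col5a3 had log2 changes of 0.25 and 0.20. Col27a1, a fibrillar chain of cartilage, was at 3.57, 1.77 and 1.95 FPKM in KO and at 4.86, 2.22 and 1.43 in WT, and its change of -0.10 ± 0.34 SE was the only negative one in the class. Without the type I chains, fibrillar FPKM summed to 141, 94.97 and 147 in KO and to 113, 86.9 and 54.3 in WT.

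Chains of type VI, the beaded filaments that surround cells in most connective tissue, were at moderate levels. Col6a1 was at 20.5, 12.6 and 18.3 FPKM in the KO mixed, male and female pools and at 16.3, 11.9 and 8.06 in the WT pools. Col6a2 was at 16.7, 10.97 and 16.5 FPKM in KO and at 11.5, 9.59 and 6.32 in WT (log2 change 0.64 ± 0.28 SE, limma adjusted p = 0.50). Both genes were higher in KO in each kind of pool, overlapped in the deposited FPKM and did not overlap after scaling. Col6a4 and Col6a6 were below the filter. Col6a4 averaged 0.207 FPKM in KO and 0.107 in WT, and Col6a6 averaged 0.217 and 0.0649. Gm7455, an older symbol of Col6a5 that the name pattern does not take, was at 0.706, 0.693 and 1.11 FPKM in KO and at 0.485, 0.295 and 0.267 in WT. Emid2, an older symbol of Col26a1, was at 0.904 to 1.37 FPKM in KO and 0.867 to 1.33 in WT. Col6a3 was not analysed here.

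The basement membrane chains Col4a1 and Col4a2, which form the common type IV network of vessels and epithelia, were higher in every KO than in every WT library. Col4a1 was at 11.1, 6.77 and 6.69 FPKM in the KO mixed, male and female pools and at 5.28, 5.66 and 4.08 in the WT pools (log2 change 0.59 ± 0.28 SE, limma adjusted p = 0.58). Col4a2 was at 7.4997, 4.72 and 4.96 FPKM in KO and at 3.67, 3.80 and 2.35 in WT (log2 change 0.65 ± 0.28 SE, limma adjusted p = 0.50). The KO mixed pool was the highest for both. Their starts lie 21 bases apart on opposite strands of chromosome 8 in the RefSeq table, head to head with annotated first bases that overlap. The ratio of Col4a1 to Col4a2 kept to 1.48, 1.44 and 1.35 in KO and 1.44, 1.49 and 1.74 in WT. Col4a5, a chain of more specialised basement membranes, was at 1.41, 0.891 and 1.13 FPKM in KO and 1.70, 1.15 and 0.903 in WT, a change of -0.06 ± 0.23 SE with a 95% interval of -0.56 to 0.44. Its neighbour Col4a6, with a start 1343 bases away on chromosome X, was below the filter, at 0.546, 0.212 and 0.443 FPKM in KO and 0.233, 0.393 and 0.188 in WT. Col4a3 and Col4a4, chains of kidney and lung basement membranes, were below 0.1 and 0.3 FPKM in every library.

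The chains that coat fibrils or cross them, known as FACIT collagens, had smaller changes. Of 8 tested, 7 had a positive change, beside 52.1% of all tested genes, and the median was 0.32. Col16a1 was at 11.3, 7.84 and 13.1 FPKM in the KO mixed, male and female pools and at 7.63, 6.83 and 4.10 in the WT pools, without overlap (log2 change 0.72 ± 0.29 SE, limma adjusted p = 0.43). Of the type IX chains, which coat the fibrils of cartilage, Col9a3 was at 6.30, 5.19 and 6.13 FPKM in KO and 4.40, 4.52 and 3.09 in WT, also without overlap. Its partner Col9a2 was at 4.81, 4.68 and 6.99 FPKM in KO and at 7.16, 4.85 and 3.65 in WT, with a change of 0.08 ± 0.29 SE, and Col9a1 had one of 0.14 ± 0.28 SE. Both overlapped between groups. Col22a1, a collagen of tissue junctions, was at 3.99, 2.496 and 4.64 FPKM in KO and at 3.27, 1.95 and 1.13 in WT. Col12a1 and Col14a1 are a related pair of fibril-associated chains. Col12a1 was at 8.57, 5.87 and 7.80 FPKM in KO and at 7.64, 6.22 and 3.91 in WT, a change of 0.31 ± 0.29 SE. Col14a1 was at 5.15, 2.92 and 4.38 FPKM in KO and at 4.93, 5.49 and 3.20 in WT, a change of -0.11 ± 0.29 SE, and Col20a1 had a change of 0.34 ± 0.24 SE. Col19a1 was listed at 0 in the KO mixed, WT mixed and WT female libraries and stood for at most about 1.6 fragments in the others.

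Collagens anchored in the cell membrane included 1 with non-overlapping groups. Col13a1, a transmembrane collagen of cell adhesion sites, was at 6.42, 3.95 and 5.23 FPKM in the KO mixed, male and female pools and at 3.15, 2.83 and 1.28 in the WT pools (log2 change 0.89 ± 0.30 SE, limma adjusted p = 0.29). Col17a1, a component of the hemidesmosomes that fix basal epithelial cells to their basement membrane, was at 2.46, 4.08 and 4.71 FPKM in KO and at 3.03, 2.58 and 1.02 in WT. It was lower in the KO than in the WT mixed pool and higher in KO in the male and female pools. Col23a1 was at 5.03, 3.84 and 4.98 FPKM in KO and 4.81, 5.03 and 3.20 in WT, and Col25a1 was below the filter with means of 0.276 FPKM in KO and 0.1803 in WT. Col7a1, the chain of the anchoring fibrils beneath basal cells, was at 5.05, 1.99 and 1.68 FPKM in KO and 3.21, 1.12 and 0.835 in WT. The multiplexins are proteoglycan-like collagens of vessel and epithelial basement membranes. Col18a1 was at 5.54, 4.88 and 6.16 FPKM in KO and at 5.99, 5.20 and 2.97 in WT, a change of 0.23 ± 0.28 SE. Col15a1 was at 2.71, 1.71 and 2.29 FPKM in KO and at 1.75, 1.45 and 0.914 in WT, a change of 0.45 ± 0.25 SE. Both multiplexins overlapped between groups in the deposited FPKM and were higher in KO without overlap after scaling.

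Of the 6 negative changes, those of Col10a1, Col8a1 and Col28a1 were the furthest from 0. Col8a1, a short network-forming chain of the hexagonal lattice under endothelia, was at 4.23, 3.74 and 4.98 FPKM in the KO mixed, male and female pools and at 7.24, 6.62 and 5.20 in the WT pools. No KO library reached the lowest WT library, although the female pair lay close together. Its log2 change was -0.46 ± 0.26 SE (limma adjusted p = 0.71), and scaled values gave -0.49 with an unadjusted p of 0.0054 and an adjusted p of 0.11 in limma. Its partner Col8a2 was at 13.7, 12.0 and 19.6 FPKM in KO and 13.2, 18.5 and 11.7 in WT, so the level of Col8a2 relative to Col8a1 was 3.24, 3.22 and 3.93 in KO and 1.82, 2.80 and 2.24 in WT, without overlap. Col10a1, the collagen of cartilage that is turning to bone, was at 1.95, 1.13 and 1.298 FPKM in KO and at 1.32, 5.996 and 2.37 in WT. The WT male pool alone set its high WT mean, the mixed pair went the other way, and the change of -0.64 ± 0.35 SE had a limma adjusted p of 0.71. Col28a1, a collagen known from peripheral nerve, was at 0.543, 0.371 and 0.306 FPKM in KO and 0.858, 0.779 and 0.593 in WT, without overlap (log2 change -0.31 ± 0.20 SE, limma adjusted p = 0.81), at about 8.7 to 45.0 fragments per library.

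Summed by class, KO as a percent of WT was highest for type I in the female pair and for basement membrane chains in the mixed pair. In the male pair it was highest for the anchoring fibril chain Col7a1. Scaling multiplies all classes of a pair by the same factor, so it cannot change this order. Type I FPKM summed to 1254, 843 and 1403 for KO (mixed, male, female pools) and to 854, 521 and 283 in the WT pools. All other collagens together summed to 294, 203 and 296 in KO and to 237, 205 and 129 in WT, so that the male pools differed by little. After scaling, KO was 177, 193 and 328% of WT for type I in the mixed, male and female pools and 149.5, 118 and 151% for the other collagens. Basement membrane chains were at 227, 137 and 117% and beaded filament chains at 162, 131 and 161% on that scale. Col7a1, the only anchoring fibril chain, was at 189, 212 and 133%, and the short network chains were at 110.4, 64.6 and 88.7%.

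**Figure D3:**
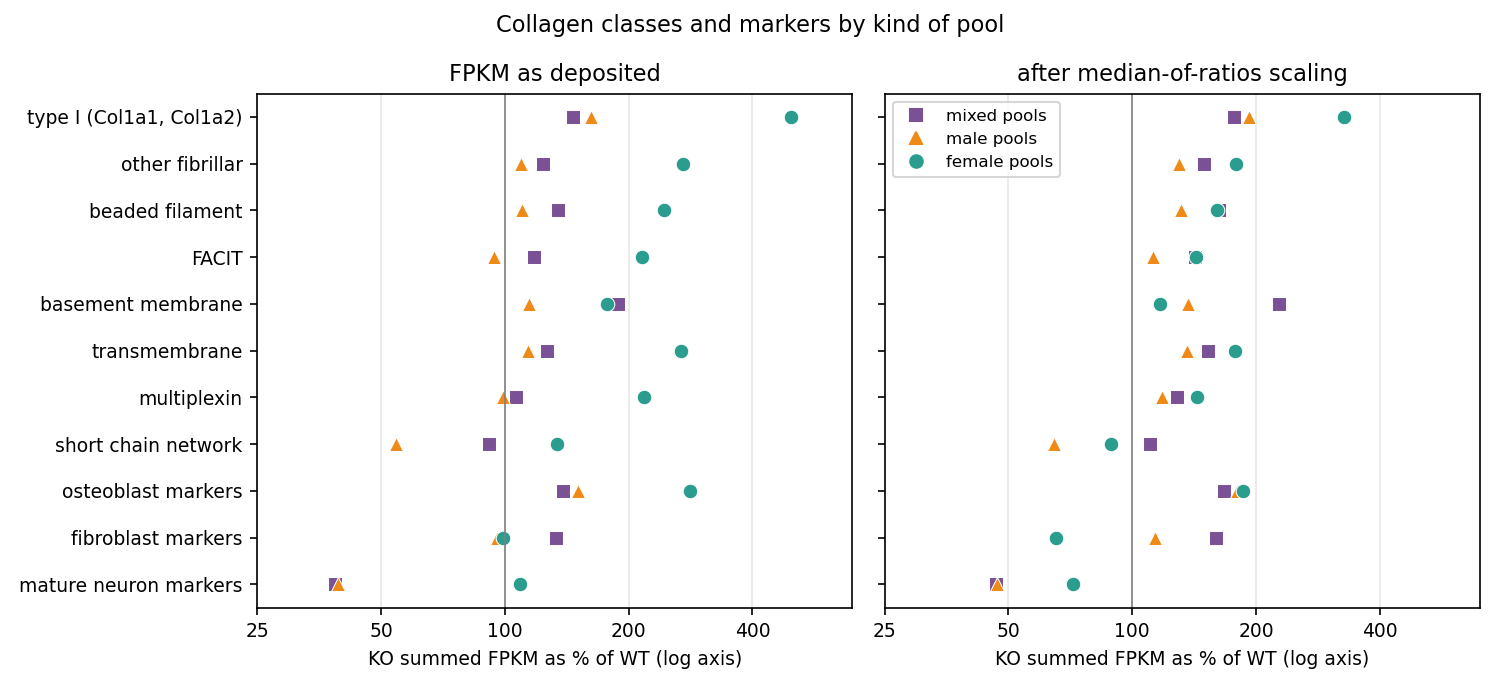
Summed FPKM of collagen classes and marker lists in KO as a percent of WT (log axis) for the mixed (squares), male (triangles) and female (circles) pools, as deposited on the left and after median-of-ratios scaling on the right. Type I lies right of 100% in all 3 kinds of pool on both scales and reaches 496% in the deposited female pair, where scaling brings it to 328%.

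Markers of cells that make collagen moved unequally beside these values. Of all tested genes, 52.1% had positive changes, and 4.26% were higher and 4.62% lower at an unadjusted p under 0.05. Of 8 osteoblast markers tested, all 8 had positive changes, none passed over all genes and 5 had an unadjusted p under 0.05. Their FPKM summed to 418 to 653 in KO and 231 to 317 in WT, none at 0. Bglap, the bone matrix protein osteocalcin, was at 252, 275 and 427 FPKM in the KO mixed, male and female pools and at 156, 160.2 and 144 in the WT pools, a ratio of Col1a1 to Bglap of 2.46, 1.503 and 1.64 in KO and 2.66, 1.501 and 0.739 in WT. Of 6 fibroblast markers 3 had positive changes, and their FPKM summed to 15.6 to 19.8 in KO and 14.9 to 16.6 in WT, with Dpt listed at 0 in the WT mixed library. Chondrocyte markers summed to 15.8 to 19.9 FPKM in KO and 15.5 to 19.7 in WT, with 1 of 4 tested positive and Matn3 listed at 0 in all KO libraries and the WT female library. Endothelial markers were positive in 6 of 6, at 38.5 to 52.7 FPKM in KO and 26.5 to 39.4 in WT, and horizontal basal cell markers in 3 of 3, at 67.5 to 122 and 36.0 to 61.7. Mature olfactory neuron markers, negative in 6 of 6, summed to 2261 to 3712 FPKM in KO and 3411 to 6152 in WT. None of these 6 passed over all genes in limma and 4 had an unadjusted p under 0.05. After scaling 2 fell, Cnga2 (limma adjusted p = 0.033) and Cnga4 (limma adjusted p = 0.021), beside 1.77% of all tested genes called in either direction. Mural cell markers were positive in 4 of 5 (275 to 363 FPKM in KO, 213 to 279 in WT), Schwann and ensheathing markers in 1 of 4 (108 to 127 and 115 to 154), sustentacular markers in 1 of 4 (1944 to 3950.2 and 2553 to 3860) and skeletal muscle markers in 1 of 2 tested (1.74 to 2.37 and 1.94 to 2.92). The part of bone, vessel, basal cell or neuron content in the collagen values was not tested.

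Among genes that make collagen, the folding and modification list had 18 of 19 members tested. Of these, 16 had a positive change and 0 passed, beside 52.1% of all tested genes positive and 0.212% that rose. Creb3l1, a transcription factor that drives type I collagen secretion in bone, was at 43.9, 49.2 and 47.5 FPKM in the KO mixed, male and female pools and at 32.3, 30.7 and 19.3 in the WT pools, without overlap. Its log2 change was 0.78 ± 0.24 SE with a limma adjusted p of 0.22, and scaled values, at 0.76, passed with an adjusted p of 0.049. Fkbp10 and Crtap, helpers of collagen folding and proline modification, were next by p, with changes of 0.61 ± 0.30 and 0.50 ± 0.25 SE. Serpinh1, the collagen chaperone HSP47, chosen after its values were seen, was at 73.4, 66.2 and 99.5 FPKM in KO and at 62.4, 64.3 and 58.4 in WT. Mia3, an export factor for procollagen, was listed at 0 in all 6 libraries. Whether its RNA was absent or its row was not counted was not tested.

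The genes that trim and cross-link procollagen held the largest change of any of these lists, and it ran opposite to the chains. Pcolce2, an enhancer of the protease that cuts off the carboxyl propeptide, was at 52.8, 54.9 and 78.0 FPKM in the KO mixed, male and female pools and at 154, 165 and 97.3 in the WT pools. No KO library reached any WT library, and the log2 change was -1.14 ± 0.26 SE with a limma adjusted p of 0.074, just short of the threshold. Scaled values gave -1.16 and passed with a limma adjusted p of 0.0175. The deposited values also passed without the WT mixed (-1.04) or the WT female library (-1.37). They did not pass without the KO mixed, male or female library (limma adjusted p = 0.24, 0.22 and 0.090) or the WT male library (0.27). Its relative Pcolce, named after its values were seen, was at 54.8, 49.98 and 74.9 FPKM in KO and at 47.6, 49.1 and 36.7 in WT, higher without overlap but only narrowly. The level of Pcolce relative to Pcolce2 was therefore 1.04, 0.911 and 0.960 in KO and 0.309, 0.297 and 0.377 in WT, a ratio that library scaling does not touch. Adamts2, which removes the amino propeptide of type I, was at 9.12, 6.44 and 9.12 FPKM in KO and 6.21, 5.52 and 3.29 in WT, and Bmp1, the carboxyl propeptide protease itself, had a log2 change of 0.59 ± 0.31 SE. In all, 8 of the 9 tested members of the list had a positive change, beside 52.1% of all tested genes, and Pcolce2 was the exception.

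Proteins that bind fibrils split. Of 11 tested, 6 had positive changes, beside 52.1% of all tested genes, 0 passed and the median was 0.18. Sparc, a collagen-binding protein abundant in bone, was at 654, 528 and 713 FPKM in the KO mixed, male and female pools and at 508, 377 and 332 in the WT pools, without overlap (log2 change 0.65 ± 0.27 SE, limma adjusted p = 0.47). Prelp, a leucine-rich proteoglycan, leaned lower, at 11.5, 5.86 and 9.63 FPKM in KO and 16.7, 14.1 and 9.77 in WT. Its log2 change was -0.55 ± 0.29 SE (limma adjusted p = 0.69), and its groups overlapped in the deposited FPKM but not after scaling. Postn had a log2 change of 0.33 ± 0.23 SE. Decorin (Dcn) and lumican (Lum), the abundant fibril proteoglycans of soft connective tissue, singled out afterwards, had changes of -0.29 ± 0.24 and -0.03 ± 0.23 SE, with intervals of -0.81 to 0.23 and -0.52 to 0.47. Col1a2 relative to Dcn was 3.22, 2.43 and 2.63 in KO and 1.75, 1.04 and 0.706 in WT, so the type I chain and this proteoglycan did not keep a constant ratio.

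**Figure D4:**
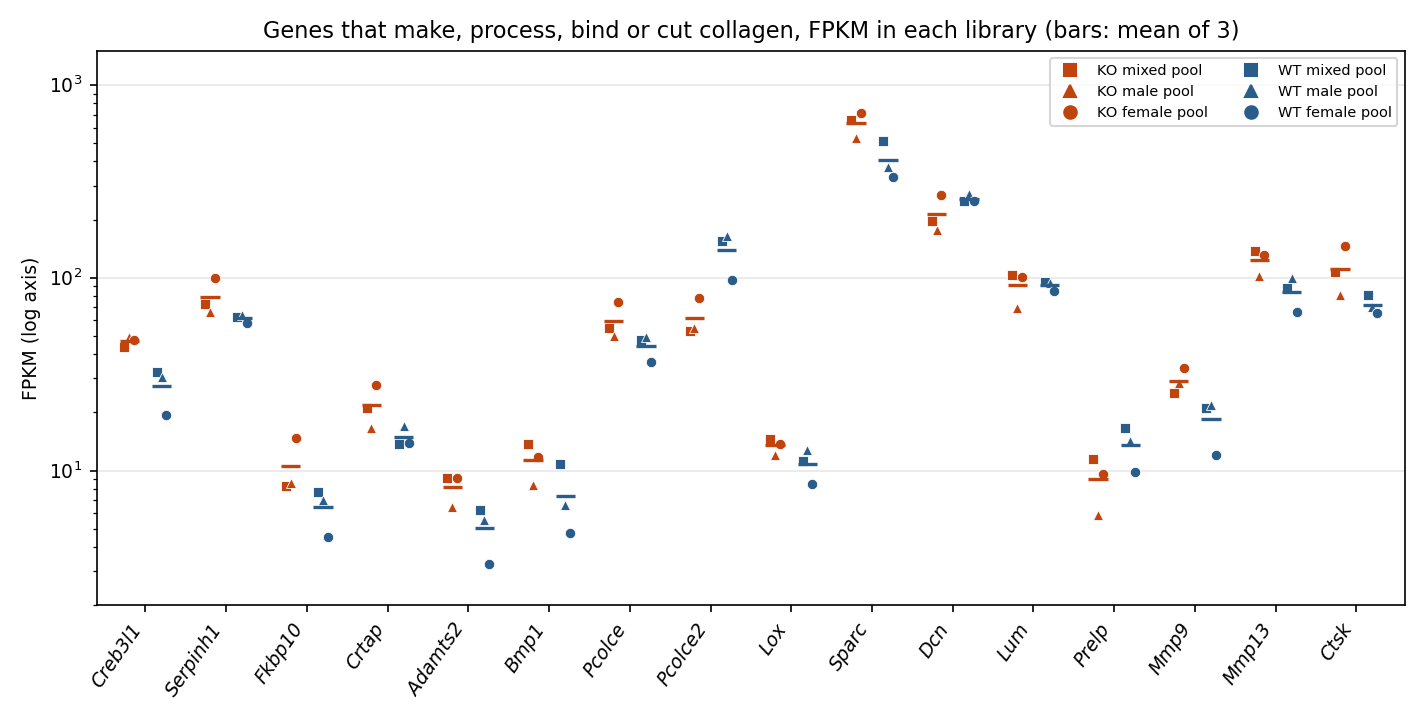
FPKM on a log axis of 16 genes that make, process, bind or cut collagen in each library, KO left of WT for each gene, with squares for mixed, triangles for male and circles for female pools and bars at the mean of 3. Pcolce2 is lower in every KO library, at 52.8 to 78.0, than in every WT library, at 97.3 to 165, while Creb3l1, Sparc, Mmp9, Mmp13 and Ctsk are higher in KO without overlap.

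Enzymes that cut collagen leaned upward like the chains. Of the 6 tested, 5 had a positive change, 0 passed and 4 had an unadjusted p under 0.05. Of all tested genes, 52.1% had a positive change and 4.26% were higher at that p. Mmp13, the main rodent collagenase of bone and cartilage, was at 138, 102 and 132 FPKM in the KO mixed, male and female pools and at 87.8, 99.4 and 66.1 in the WT pools. Mmp9, a gelatinase, had a log2 change of 0.67 ± 0.26 SE, and Ctsk, the collagen-cutting protease of osteoclasts, one of 0.57 ± 0.25 SE. Mmp8, the neutrophil collagenase, was the negative one, at -0.35 ± 0.33 SE. Of 8 collagen receptors tested, 7 had a positive change and 0 passed, with the largest for Ddr1 at 0.47 ± 0.27, followed by Itgb1 at 0.31 ± 0.22 and Itga10 at 0.30 ± 0.30 SE. The partners of type IV in the basement membrane, laminins, nidogens and perlecan, had 11 of 13 positive, 0 called and a median of 0.25. Perlecan (Hspg2) and the laminin chain Lama5 had log2 changes of 0.56 ± 0.29 and 0.45 ± 0.32 SE.

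The pools of different sex allowed a look at whether collagens followed sex. With genotype in the model, 0 of the 34 collagens changed with how much of a pool was female (0, 50 or 100%), beside 0.0996% of all tested genes in limma, and 0 had an unadjusted p under 0.05, beside 0.743%. The KO effect did not differ with the female share for any collagen at the adjusted threshold, beside 0.126% of all tested genes. At an unadjusted p under 0.05 the difference was found for 2, Col1a1 and Col11a2, beside 4.15%. All 34 interaction coefficients were positive, as were 92.3% of all tested genes. Each genotype had a single male and a single female pool. A difference with sex therefore cannot be told apart from a shift in a single library, such as WT female. Col4a3bp, the ceramide transfer protein caught by the name pattern, was at 12.7, 11.8 and 12.6 FPKM in the KO mixed, male and female pools and at 15.3, 12.9 and 8.40 in the WT pools, a log2 change of 0.05 ± 0.26 SE.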

How the data were processed

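RNA-seq libraries of olfactory epithelium from 3 KO and 3 WT pools were compared. Per the labels' protocols, RNA was purified on columns with a DNase step and libraries were treated with duplex-specific nuclease, which degrades the most abundant cDNA and so can shrink differences at high levels. The authors deposited 1 FPKM value per gene row and library. Per the submitters' processing notes, TopHat2 2.0.7, Bowtie, Cufflinks 1.3.3 and Cuffdiff were used with build mm9. Annotation, strand and settings were not given in the sources used. The unit was read from the header form, the values and these programs. The 2 columns that name no sex were matched to the mixed pools by elimination.

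Of 22310 rows, 429 with a repeated symbol were left out, keeping the row of highest mean (no collagen was repeated). limma 3.58.1 in R 4.3.3 was run on log2(FPKM + 1), a scale that understates changes of low genes, with a variance prior following the mean. The fit was tested on simulated data with independent normal noise in each gene and no shift of whole libraries. That simulation cannot show how the fit handles a library such as WT female. Fragment numbers are approximate, since transcript lengths come from GRCm38 models, and intervals cover the spread between pools. Alternatives covered pseudocount, filter, scaling, prior, repeated symbols, pool kind and libraries left out. Members, gene lists and tests were chosen with earlier results of these data known. Named genes were those past the threshold or with an unadjusted p under 0.05, up to 4 per class by level, and up to 3 per pathway list by p; other collagens were given by value or range. Bglap, Cnga2, Cnga4, Dpt, Matn3, Serpinh1, Mia3, Pcolce, Dcn, Lum, Mmp8, Gm7455 and Emid2 lay outside that rule and were picked with their values known. A gene that the rule names among the pathway lists is not reported here.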

Additional observations from a re-analysis of the deposited data

How the results depend on the processing

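Precision is limited by 3 pools a genotype and by the shallow mixed pools, and the direction of most collagens held while their calls did not. With the kind of pool as a replicate block, 2 collagens rose, Col1a1 (limma adjusted p = 0.000935) and Col1a2 (limma adjusted p = 0.026), 1 was lower at an unadjusted p under 0.05, Slc12a2 fell by 1.26 with an adjusted p of 0.0082, and 440 genes were called in all, 150 of them higher; block and scaling together left 0 collagens called, 18 higher and 1 lower at an unadjusted p under 0.05, 327 genes called and Slc12a2 at -1.28. Deviations of same-kind pools from their group means correlated at 0.36 (mixed), 0.21 (male) and -0.09 (female). With group means taken over 3 pools, these values cannot decide whether the kind of pool pairs the libraries. The other counts of called genes, 126 in the main setting, were 30 with no filter, 267 with median-of-ratios scaling, 270 with quantile normalization (17 collagens higher and 1 lower at an unadjusted p under 0.05 in both of the last) and 333 without both mixed pools. With no filter 1 collagen was lower at an unadjusted p under 0.05. Without both mixed pools 3 collagens rose (Col1a1, Col1a2 and Col11a2), 1 fell (Col10a1) and 1 was lower at an unadjusted p under 0.05, and the KO sum was 241% of WT for all collagens and 263% for fibrillar ones, where all libraries gave 193 and 203%. With 1 library left out, collagens that rose ran from 0 to 5, that fell from 0 to 1, higher at an unadjusted p under 0.05 from 3 to 18, lower from 0 to 2, all called genes from 42 to 573, the Slc12a2 change from -1.49 to -0.89, the collagen median from 0.27 to 0.57, and the KO sum from 157 to 251% of WT for all and 164 to 274% for fibrillar collagens. On scaled values, leaving out the KO mixed, male or female library gave 13, 16 or 15 collagens higher and 2, 1 or 1 lower at an unadjusted p under 0.05, and the WT ones 17, 14 or 14 higher and 2, 1 or 1 lower. Of these, 2 collagens rose without the WT mixed library. The calls over all genes that moved on that scale were 75 and 39 (without KO male, female) and 210 and 68 (without WT mixed, male). Only small changes reversed, and with 1 library left out they ran as follows. Col27a1 ran from -0.38 to 0.26, and was 0.029 without both mixed pools and 0.04 without the KO male library. Col9a1 ran from -0.013 to 0.33. Col14a1 ran from -0.29 to 0.079, with 0.02 without the WT male library. Col4a5 ran from -0.18 to 0.076, with 0.02 without the KO male library. Col8a2 ran from -0.13 to 0.24, with -0.07 without the WT female library. Col9a2 ran from -0.11 to 0.30, with -0.08 without the KO female library. Col18a1 ran from -0.017 to 0.39, and Col23a1 from -0.083 to 0.19. The cause was not tested. The combinations of scaling with the block or with a library left out were chosen after seeing the data.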
